A study of Canis lupus familiaris with 22 samples.

Results

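The genes described here encode the proteins of the cytosolic ribosome and were measured in the blood of dogs with canine atopic dermatitis (cAD), an allergic skin disease of dogs, before and after allergen-specific immunotherapy (ASIT). The members were taken by name alone: every transcript probe of the array whose gene name was RPL or RPS followed by a number, with at most 1 further letter or a paralog suffix of L and a digit, together with RPLP0, RPLP1, RPLP2 and RPSA, and leaving out the RPS6K kinases and the RPS4 genes. This gave 48 gene names on 91 probes, out of 34382 gene names on 43603 probes of the whole array. A gene was taken as measured where at least 1 of its probes had a Cy5 signal well above background on all 22 arrays. That held for 46 of the 48 genes, with 88 probes, of which 28 belong to the large (60S) subunit and 18 to the small (40S) subunit. Over the whole array 15802 gene names were measured. The rule itself uses gene names and this filter on signal, and no difference between groups.

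The small subunit of the ribosome reads the messenger RNA, and the large subunit joins the amino acids and holds the exit tunnel for the new protein. Nearly all ribosomal proteins are present in equal numbers in the particle, and their transcripts carry a terminal oligopyrimidine (TOP) tract at the start, through which LARP1 and the mTOR pathway set their translation together. In blood, ribosomal protein transcripts are abundant in lymphocytes and are retained in young red cells, whereas mature neutrophils make little new ribosome.

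The arrays held 8 healthy dogs (ctrl) and 7 cAD patients, each patient sampled before ASIT (0) and again after 6 months of subcutaneous injections of the allergens to which that dog reacted. The patients were privately owned dogs, and the healthy dogs were donors of a veterinary blood bank. All were adult dogs of several breeds, and the breeds, sexes and ages differed between cAD patients and healthy dogs. Healthy dogs received no treatment and gave 1 array each, and no patients without ASIT were followed. Time and ASIT thus cannot be told apart in the patients. The labels name the material as venous whole blood in RNA-preserving tubes, whereas the study writes of peripheral blood nuclear cells. Each array compared the RNA of 1 dog (Cy5) with a common reference of pooled RNA from other healthy dogs (Cy3), so a value is a log2 ratio to that reference and 0 means the level of the reference. Healthy dogs lay on slides 1 and 2 and scan 1, and no cAD array shared a slide or a scan with them, so disease and slide cannot be told apart wherever patients are set against healthy dogs. Dogs 1 to 3 had both of their arrays on the same slide, whereas the arrays of dogs 4 to 7 after ASIT were all on slide 6 and those before ASIT on slides 4 and 5.

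Member signals were bright on every array. Between 97.8% and 100% of the member probes had Cy5 well above background on each array, against 83.7% to 92.3% of all probes in healthy dogs, 53.3% to 87.5% before ASIT and 57.2% to 81.6% after ASIT. No spot was saturated. RPL22 and RPL34 were the genes not measured: both were above background on all 8 arrays of healthy dogs and all 7 arrays before ASIT, but RPL22 on 5 and RPL34 on 4 of the 7 arrays after ASIT.

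The values below come from 60-base probes, and the following probes are shown because the results turn on them. The RPL23 probe reads the gene with the highest difference in 0 vs. ctrl, and the RPL7 probe a gene that varied widely among healthy dogs. The RPLP0 probe, 1 of 3 for this gene of the ribosomal stalk, is the lowest of them in 0 vs. ctrl, and the RPL3L probe the paralog of RPL3 that ran opposite to the other members over the arrays. Positions are those given in the files for canFam3.1, on chromosomes 9, 29, 26 and 6, and a stretch longer than the probe spans an intron.
RPL23, chr9:23398333-23402761, plus strand: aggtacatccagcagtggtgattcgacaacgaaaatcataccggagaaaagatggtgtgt
RPL7, chr29:21881467-21881526, minus strand: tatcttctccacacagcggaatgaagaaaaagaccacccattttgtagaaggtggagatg
RPLP0, chr26:16148662-16149076, minus strand: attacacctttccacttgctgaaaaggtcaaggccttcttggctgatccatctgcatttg
RPL3L, chr6:38980142-38980598, plus strand: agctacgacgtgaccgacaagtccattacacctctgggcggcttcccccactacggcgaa

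Probes of 1 gene were not always independent readings. A pair of the 5 RPL15 probes on chromosome 23 shares 54 bases, set in capitals, whereas the RPL13 pair on chromosome 5 reads separate stretches of the same transcript and shows how far such probes can differ.
RPL15, first probe, chr23:19827396-19827455, minus strand: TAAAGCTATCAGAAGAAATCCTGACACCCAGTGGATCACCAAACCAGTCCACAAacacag
RPL15, second probe, chr23:19827402-19827461, minus strand: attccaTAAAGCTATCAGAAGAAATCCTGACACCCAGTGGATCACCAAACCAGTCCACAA
RPL13, first probe, chr5:63978565-63979166, minus strand: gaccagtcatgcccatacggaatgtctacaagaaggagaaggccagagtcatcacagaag
RPL13, second probe, chr5:63978447-63978506, minus strand: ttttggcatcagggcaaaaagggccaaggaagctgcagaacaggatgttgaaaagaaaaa

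Over the member probes as a set, 34.1% of the 88 member probes held AATAAA or ATTAAA, the letters of the polyadenylation signal searched on the probe strand, against 14.4% of all 20881 measured probes. Their median GC content was 43.3%, against 45% over all measured probes. The member probes lay on 20 chromosomes.

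The first comparison, 0 vs. ctrl, asked which transcripts differed between untreated cAD patients and healthy dogs. No ribosomal protein gene passed an adjusted p of 0.05 in the limma fit over 15802 genes, where 0.00633% of all genes were called, and the smallest adjusted p of a member was 0.26. Before adjustment, 13 of the 46 members (28.3%) were higher in cAD patients at p under 0.05, against 3.25% of all genes, and 0 members were lower, against 6.06% of all genes. The difference was above 0 in 38 of the 46 members (82.6%), against 52.6% of all genes. The median difference of the members was 0.21 on the log2 scale, against 0.01 over all genes. In whole blood, more ribosomal protein RNA per cell and more of the cells that hold it cannot be told apart.

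Each array was also summarised by the median log2 ratio of its 46 members. Healthy dogs ran from -0.57 to 0.18, with a median of -0.16. Patients before ASIT ran from -0.34 to 0.34, with a median of 0.09, and after ASIT from -0.44 to 0.04, with a median of -0.14. The groups overlapped. Control 5, at -0.57, was the lowest healthy dog in 33 of the 46 genes, and control 8, at 0.18, the highest in 23. Before ASIT, dog 2 was the lowest patient in 26 genes and dog 4 the highest in 23. Without control 5 the median difference of the members in 0 vs. ctrl was 0.16 and the count of members at p under 0.05 went from 13 to 8 (17.4%, against 2.8% of all genes), and it was also 8 without the array of dog 6 before ASIT (against 3.84%).

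**Figure D1:**
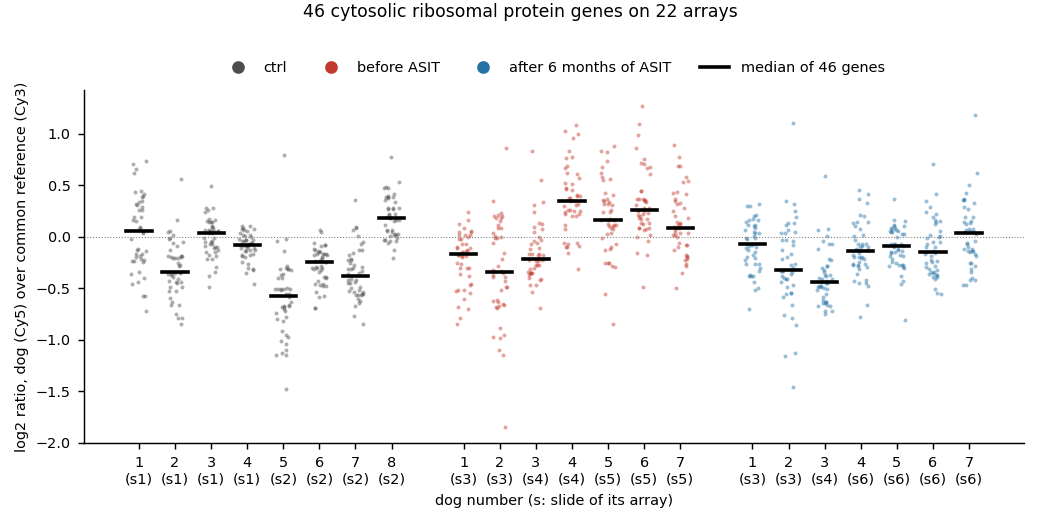
Log2 ratio to the common reference (y axis) of the 46 measured ribosomal protein genes on each of the 22 arrays (x axis: dog number, with the slide of its array), 1 dot per gene, coloured by group, with a black line at the median of the 46 genes. The medians lay between -0.57 and 0.18 in healthy dogs, -0.34 and 0.34 before ASIT and -0.44 and 0.04 after ASIT, and the 3 groups overlapped.

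Among the proteins of the large subunit, 22 of 28 genes (78.6%) had a higher mean in cAD patients before ASIT, against 52.6% of all genes. Of these, 6 were at p under 0.05 before adjustment (RPL12, RPL23, RPL24, RPL30, RPL35 and RPL37), where 3.25% of all genes were higher. The median difference was 0.17, against 0.01 over all genes. The widest gap was that of RPL23, a protein of the face that meets the small subunit, which also binds the p53 regulator MDM2. RPL23 ran from -1.04 through a median of 0.00 to 0.70 in healthy dogs and from -0.16 through 0.82 to 1.26 before ASIT. Dogs 4 to 7, at 0.82 and above, lay over the highest healthy dog, whereas dogs 1 to 3 lay within the healthy range. The difference was 0.67 on the log2 scale (SE 0.25), or 1.59-fold, with an adjusted p of 0.35 (limma) and an exact two-sided permutation p of 0.0535.

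RPL37, a small zinc-binding protein of the large subunit, ran from -1.14 through -0.15 to 0.39 in healthy dogs and from -0.55 through 0.35 to 0.95 before ASIT. Control 5 gave the lowest value and the ranges overlapped. The difference was 0.60 (SE 0.23), or 1.51-fold, with an adjusted p of 0.358 and an exact permutation p of 0.0479. RPL35, which sits at the mouth of the exit tunnel, differed by 0.46 (SE 0.16), or 1.37-fold, with an adjusted p of 0.325 and an exact permutation p of 0.018. Its values ran from -0.82 through -0.20 to 0.44 in healthy dogs and from 0.07 through 0.18 to 0.61 before ASIT. All patients were thus above the healthy median, but the ranges overlapped. RPL12, at the base of the stalk, had the smallest adjusted p of all members at 0.26, with a difference of 0.53: healthy dogs ran from -0.63 through -0.21 to 0.44 and patients from 0.08 through 0.40 to 0.83. RPL18 was the large subunit gene furthest below 0, at -0.13 (SE 0.13, adjusted p = 0.813, exact permutation p = 0.276).

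Among the proteins of the small subunit, 16 of 18 genes (88.9%) had a higher mean before ASIT, against 52.6% of all genes. Of these, 7 were at p under 0.05 before adjustment (among them RPS7, RPS10, RPS14, RPS20 and RPS27A), where 3.25% of all genes were higher. The median difference was 0.29, against 0.01 over all genes. RPS27A, which is made as a fusion with ubiquitin, differed by 0.57 with an adjusted p of 0.533 and an exact permutation p of 0.119.

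RPS24 was the member furthest in the other direction. It rested on 1 probe, described by a heart cDNA sequence that names no gene, and whether this probe reads RPS24 transcripts was not tested. RPS24, mutated in some families with Diamond-Blackfan anaemia, ran from -0.58 through -0.17 to 0.55 in healthy dogs, from -1.85 through -0.47 to 0.03 before ASIT and from -1.45 through -0.32 to -0.27 after ASIT. Dog 2 gave the lowest value at both times. The difference was -0.39 (SE 0.24, adjusted p = 0.662, exact permutation p = 0.163) in 0 vs. ctrl and -0.37 (SE 0.24, adjusted p = 0.585, exact permutation p = 0.0915) in 6 months vs. ctrl. Without the array of dog 2 before ASIT the first was -0.17, and without that after ASIT the second was -0.22.

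**Figure D2:**
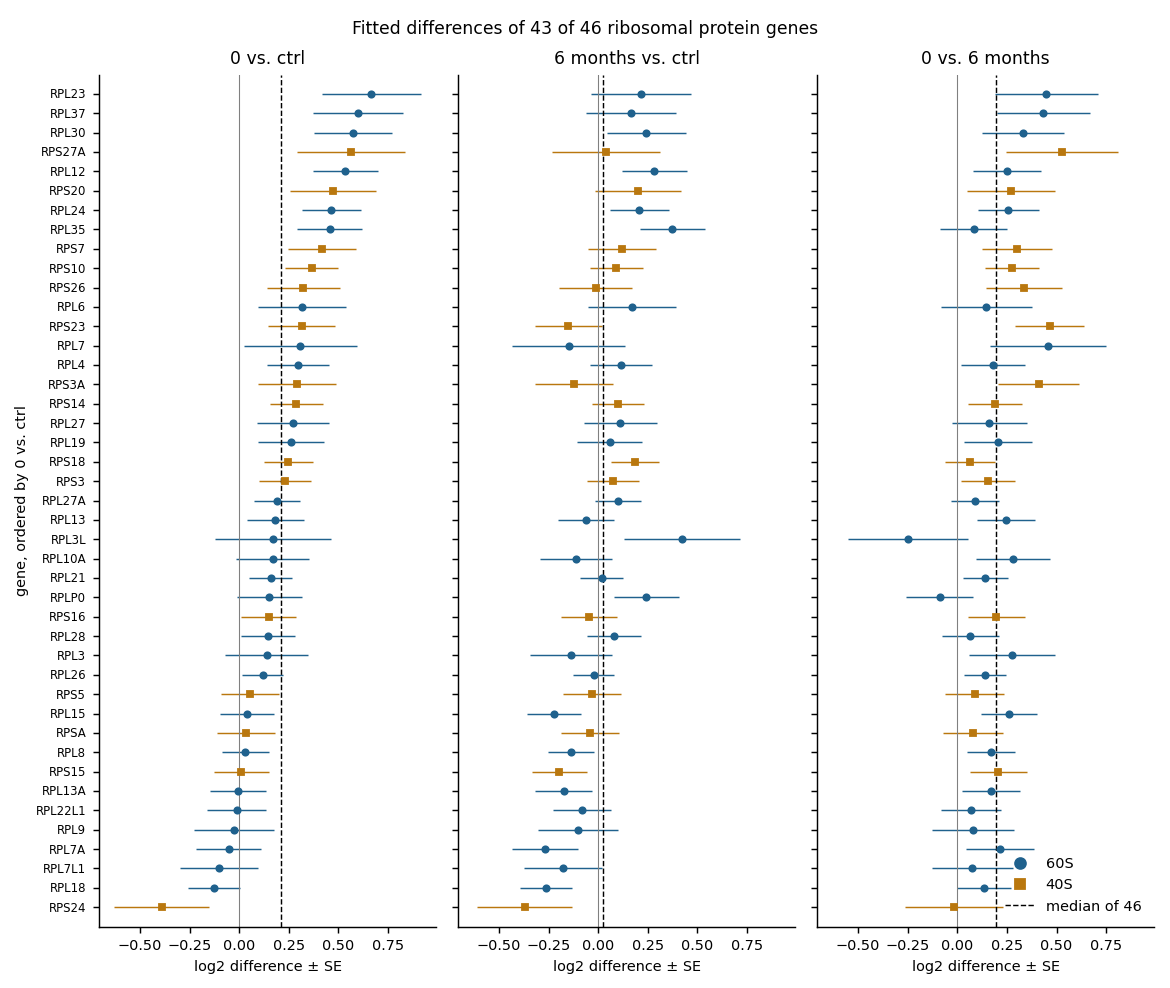
Log2 difference with bars of 1 SE from the limma fit (x axis) of 43 of the 46 ribosomal protein genes (rows, in the order of 0 vs. ctrl), with 60S genes as blue circles, 40S genes as orange squares and a dashed line at the median of all 46. In 0 vs. ctrl the genes ran from -0.39 (RPS24) to 0.67 (RPL23), and the medians of the 3 panels were 0.21, 0.02 and 0.19.

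In 6 months vs. ctrl, the members lay on both sides of 0. No member passed the adjusted threshold, where 0.00633% of all genes did, and RPL35 and RPL18 shared the lowest adjusted p, 0.566. At an unadjusted p under 0.05, 1 member was higher (RPL35; 2.17% of members against 4.67% of all genes) and 0 were lower (against 3.63%). The difference was above 0 in 24 of 46 members (52.2%), against 45.5% of all genes, and the median was 0.02, against -0.03 over all genes. The direction turned with the processing: 16 of 46 members were above 0 with normexp background correction and loess, and 9 with the Cy5 channel alone. The member medians there were -0.06 and -0.13, against -0.00 and -0.04 over all genes. In the main fit the large subunit had 15 of 28 genes (53.6%) above 0 and the small subunit 9 of 18 (50%), against 45.5% of all genes.

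RPL35 was higher after ASIT as it was before, at -0.10, 0.20 and 0.62 for the lowest, median and highest patient, a difference of 0.37 from healthy dogs (SE 0.16, 1.3-fold, exact permutation p = 0.0597). RPL7A, a large subunit protein, was at -0.40, -0.15 and 0.24 in healthy dogs and at -0.86, -0.41 and -0.07 after ASIT. The ranges overlapped, and the difference was -0.27 (SE 0.17, adjusted p = 0.582, exact permutation p = 0.0393). RPL18 differed by -0.26 (SE 0.13, adjusted p = 0.566, exact permutation p = 0.0636). Across the 3 groups together, 0 members were called against 0.00633% of all genes, and 9 (19.6%) had an unadjusted p under 0.05 against 7.38% of all genes. That count moved with single arrays: it was 3 (6.52%) without the array of dog 4, 5 or 6 before ASIT, against 8.3%, 9.1% and 7.8% of all genes, and 4 (8.7%) without that of dog 7 before ASIT or of control 2, 5 or 7, against 5.23% to 6.28%. It was 16 (34.8%) without the array of dog 2 before ASIT, against 8.72% of all genes, and 0 with the scan as a random block, against 2.4%.

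In 0 vs. 6 months, the same dogs were compared before and after ASIT. The main fit holds the means of the 3 groups and no term for the dog, so it does not pair the arrays. The mean was higher before ASIT in 43 of the 46 members (93.5%), against 49.8% of all genes, with a median difference of 0.19, against -0.00 over all genes, and of 0.32 with normexp and loess and 0.31 with the Cy5 channel alone. No member was called, nor was any other gene (0% of all genes), and the smallest adjusted p of a member was 0.963. Before adjustment, 1 member was higher before ASIT at p under 0.05 (RPS23; 2.17% against 1.44% of all genes), and 0 were lower (against 0.867%). That count was 21 (45.7%, against 1.49% of all genes) with normexp and loess and 17 (37%, against 5.52%) with the Cy5 channel alone. It was 13 (28.3%, against 5.27%) without the array of dog 2 before ASIT and 0 (against 0.715%) without both arrays of dog 6. With the dog as a replicate block, which pairs the arrays of each dog, 0 members were called and 11 rather than 1 (23.9%) were higher before ASIT at an unadjusted p under 0.05, against 4.13% of all genes, and 0 were lower, against 1.39%. As 0 vs. ctrl and 0 vs. 6 months share the arrays before ASIT, their member values are not independent.

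The difference was not alike in all dogs. The median of the members before minus after ASIT was -0.10 in dog 1, -0.03 in dog 2 and 0.22 in dog 3, with 8, 18 and 37 of the 46 genes higher before ASIT. It was 0.54 in dog 4, 0.30 in dog 5, 0.42 in dog 6 and 0.09 in dog 7, with 44, 39, 40 and 31 genes higher before ASIT. Dogs 1 to 3 are those with both arrays on the same slide. In a fit of dogs 1 to 3 alone, with the dog as a block, the median difference of the members was 0.03, as it was over all genes, with 27 of 46 members above 0. In that fit 0 members were higher at an unadjusted p under 0.05, against 3.77% of all genes, and 1 (2.17%) was lower, against 2.4%. In dogs 4 to 7 alone, a fit chosen after seeing the data, the median was 0.33, against -0.02 over all genes, with 42 members above 0. In that fit 16 members (34.8%) were higher before ASIT at an unadjusted p under 0.05, against 7.47% of all genes, and 0 were lower, against 3.06%. The part of the slide in this was not tested: in dogs 4 to 7, time and slide cannot be told apart. With the slide as a fixed block the median was 0.17, against 0.01 over all genes, with 40 of 46 members above 0. In that fit 0 members had an unadjusted p under 0.05, against 0.5% of all genes higher and 0.259% lower. Slide 5 holds arrays before ASIT and slide 6 arrays after it. That fit thus rests on slides 3 and 4, which hold both arrays of dogs 1 to 3 and the array of dog 4 before ASIT.

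Counted gene by gene, 2 members (4.35%: RPL21 and RPS23) were higher before ASIT in each of dogs 1 to 3, against 16.1% of all genes. In each of dogs 4 to 7 it was 27 members (58.7%), against 12.9% of all genes. Only RPS23 was higher before ASIT in all 7 dogs (2.17% of members, against 1.2% of all genes), and 0 members were lower in all 7 (against 0.608%).

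RPS23, a protein of the decoding centre, was at -0.63, -0.13 and 0.57 before ASIT and at -0.66, -0.50 and -0.21 after ASIT for the lowest, median and highest dog. Its value before minus after ASIT ran from 0.03 in dog 2 to 0.90 in dog 6, with 0.20 in dog 1, 0.34 in dog 3, 0.78 in dog 4, 0.72 in dog 5 and 0.30 in dog 7. The difference was 0.47, or 1.38-fold, with an unadjusted p of 0.0136 and an adjusted p of 0.963 in limma, and an exact sign-flip permutation p of 0.0156, the smallest that 7 dogs can give. Without both arrays of dog 6 the difference was 0.39 and the unadjusted p 0.0527.

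RPS27A had the widest gap between the times, at -0.42, 0.58 and 1.09 before ASIT and -0.67, -0.15 and 0.21 after ASIT, a difference of 0.53 (1.44-fold, SE 0.28, adjusted p = 0.963, exact permutation p = 0.0625). RPL7, a large subunit protein, was at -0.68, 0.32 and 0.99 before and -0.67, -0.28 and 0.45 after ASIT. For RPL7 the values after ASIT lay within the range of those before it, and the difference was 0.46 (SE 0.29, exact permutation p = 0.125). It was 1.02 in dog 5 and 1.49 in dog 6, whose arrays lay on different slides, and -0.05 over dogs 1 to 3, with both arrays on the same slide. RPL23 differed by 0.45 (exact permutation p = 0.0938). RPL37 differed by 0.43 (exact permutation p = 0.0469) and was higher before ASIT in 6 of 7 dogs. RPS3A, a small subunit protein near the platform, differed by 0.41 (exact permutation p = 0.0469).

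**Figure D3:**
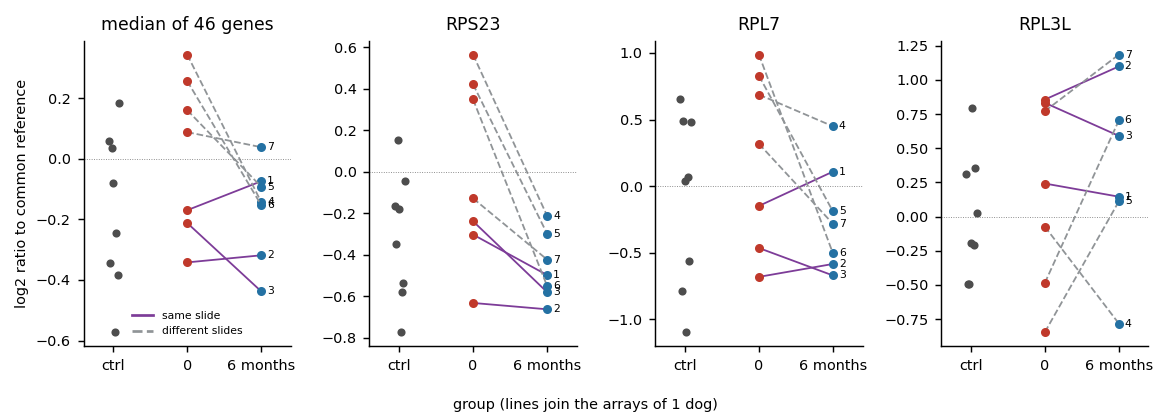
Log2 ratio to the common reference (y axis) for the median of the 46 genes and for RPS23, RPL7 and RPL3L in healthy dogs and in cAD patients at 0 and 6 months (x axis), with lines joining the arrays of 1 dog, solid where both lay on 1 slide (dogs 1 to 3) and dashed where they did not. The median before minus after ASIT was -0.10, -0.03 and 0.22 in dogs 1 to 3 and 0.54, 0.30, 0.42 and 0.09 in dogs 4 to 7, and RPS23 was higher before ASIT in all 7.

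The stalk of the large subunit, which recruits the elongation factors, was represented by RPLP0. Its values were -0.59, -0.29 and 0.40 in healthy dogs, -0.29, 0.02 and 0.28 before ASIT and -0.66, 0.24 and 0.36 after ASIT. RPLP0 was thus among the 3 members with a lower mean before ASIT than after it, but by only -0.09 (SE 0.17, adjusted p = 0.965, exact permutation p = 0.594). Against healthy dogs it differed by 0.15 before ASIT (adjusted p = 0.822, exact permutation p = 0.297) and 0.24 after ASIT (adjusted p = 0.594, exact permutation p = 0.205). Its 3 probes gave -0.03, the one shown above, 0.26 and 0.23 in 0 vs. ctrl. RPSA, a small subunit protein also known as the laminin receptor, was at -0.69, -0.35 and 0.05 in healthy dogs and at -0.97, -0.18 and 0.20 before ASIT, a difference of 0.04 (adjusted p = 0.957, exact permutation p = 0.832).

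Of the paralogs, RPL3L, the muscle form of RPL3, was at -0.49, -0.08 and 0.79 in healthy dogs, -0.85, 0.24 and 0.86 before ASIT and -0.78, 0.59 and 1.18 after ASIT. RPL3L rested on 1 measured probe, as its other probe had Cy5 above background on 21 of the 22 arrays. Its direction in 0 vs. 6 months turned when both probes were read and in dogs 1 to 3 alone. In 0 vs. ctrl it turned with the Cy5 channel alone. Control 5, the lowest healthy dog for most members, was here the highest. The difference was 0.17 in 0 vs. ctrl (adjusted p = 0.885), 0.42 in 6 months vs. ctrl (SE 0.29, adjusted p = 0.601, exact permutation p = 0.172) and -0.25 in 0 vs. 6 months (SE 0.30, adjusted p = 0.963, exact permutation p = 0.344), and the values within dogs ran from -1.19 in dog 6 to 0.71 in dog 4. RPL22L1, the paralog of RPL22, differed by -0.01 in 0 vs. ctrl (adjusted p = 0.988, exact permutation p = 0.938). RPL7L1, which works in the making of the large subunit, was at -0.58, -0.19 and 0.16 in healthy dogs and at -1.15, -0.23 and 0.13 before ASIT, with dog 2 lowest, a difference of -0.10 (adjusted p = 0.898, exact permutation p = 0.614).

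The array names no member RPS19, which served the study as the reference gene of its PCR, nor RPS6, RPLP1 or RPLP2. A probe named TC64828 is described as ribosomal protein S19 and is given apart from the members. It was at -0.32, -0.09 and 0.44 in healthy dogs, -0.04, 0.15 and 0.37 before ASIT and -0.40, -0.09 and 0.16 after ASIT. It differed by 0.20 in 0 vs. ctrl (SE 0.12, adjusted p = 0.655, exact permutation p = 0.0821) and by 0.27 in 0 vs. 6 months (adjusted p = 0.963, exact permutation p = 0.0469), and was higher before ASIT in 6 of 7 dogs. A further 115 probes carry a ribosomal protein description without a member's symbol and were not used.

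Of the 46 genes, 20 rested on 1 probe, 15 on 2, 7 on 3, 3 on 4 and 1 on 5. Probes of the same gene could give unlike differences in 0 vs. ctrl. The RPL15 probes that share 54 bases gave -0.05 and 0.01 (SE 0.11 each), whereas the RPL13 probes shown above gave -0.00 (SE 0.14) and 0.37 (SE 0.17). Most apart were the probes of RPL22L1, at 0.35, -0.02 and -0.36, and of RPS3A, at 0.56, 0.33 and -0.02. The differences of these genes thus depend on which probe is read. Some averaged probes may also not read the transcript of their gene. An RPS18 probe lies on chromosome 17 and is described as similar to LOC400948, whereas the other RPS18 probe lies on chromosome 12. In 0 vs. 6 months they gave -0.21 and 0.34. The 2 RPL19 probes are given on opposite strands. Both RPL37 probes gave 0.60, and both RPL27 probes 0.27, but the probes of each of these pairs read overlapping stretches and are not independent.

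**Figure D4:**
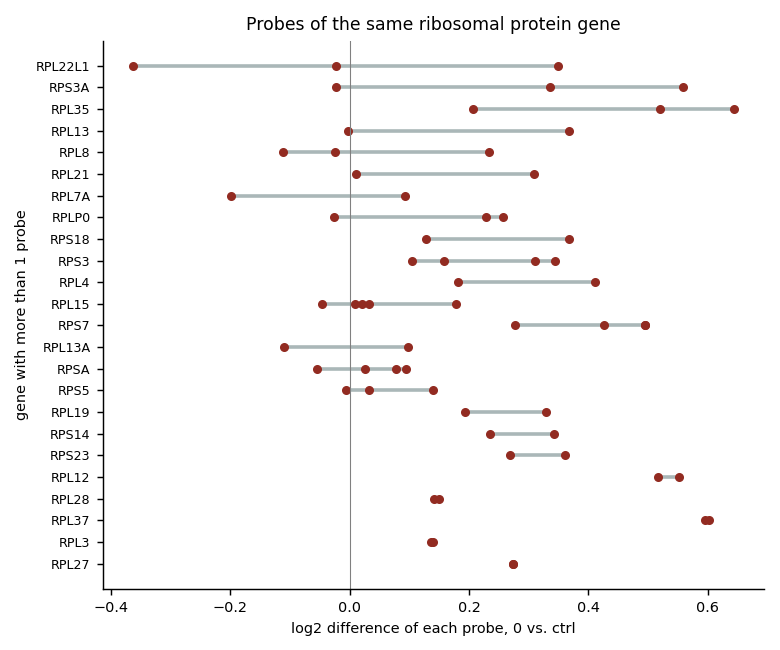
Log2 difference in 0 vs. ctrl (x axis) of each probe, 1 dot per probe, for 24 genes with more than 1 probe (rows), with a grey bar from the lowest to the highest probe of the gene. The widest spread was that of RPL22L1, from -0.36 to 0.35, and both RPL37 probes lay at 0.60.

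The median SD of the members was 0.29 in healthy dogs, 0.32 before ASIT and 0.23 after ASIT, against 0.30, 0.39 and 0.34 over all genes. Among healthy dogs the steadiest members were RPL26 (SD 0.15), RPL7A (SD 0.22) and RPL21. RPL26, a protein next to the exit tunnel, rested on 1 probe, described by a cDNA similar to human ribosomal protein L26. It ran only from -0.24 to 0.26 in healthy dogs, and its difference in 0 vs. ctrl was 0.12 (adjusted p = 0.78, exact permutation p = 0.176). With the Cy5 channel alone the direction turned, and RPL26 was lower in cAD patients at -0.48 (adjusted p = 0.0423, limma), the only call of a member under any setting; 4.54% of all genes were called there. RPL21 differed by 0.16 (adjusted p = 0.708). The widest were RPL7 (SD 0.65) and RPS27A (SD 0.63). Across the 46 genes, those with a wider SD among healthy dogs tended to have a higher difference in 0 vs. ctrl (r = 0.579), whereas with the SD after ASIT the correlation was -0.148. The first pair of measures shares the arrays of the healthy dogs, and genes are not independent replicates.

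Over the 22 arrays, with the mean of each group removed, most members went up and down together. Of 1035 pairs of members, 946 had a correlation above 0, and the median was 0.571, against 0.007 for pairs of all 15770 genes with values on every array. The closest pair was RPL23 and RPS27A, at 0.976, and the most opposed RPL3L and RPL7A, at -0.754. All points share the arrays, their slides and the common reference, so these correlations are a description. With the median of the other members, RPS3 (0.933), RPS10 (0.932) and RPL24 (0.93) were closest, and RPL3L (-0.447), RPLP0 (0.209), RPL28 (0.241) and RPL26 (0.252) furthest. RPL3L and RPL3 were opposed, at -0.715. Of the named genes that are not members, POLE4 (0.882) and EEF1B2 (0.88), a subunit of the elongation factor EEF1, followed the member median most closely, and SERTAD3 (-0.797) and LRG1 (-0.77), a glycoprotein made by neutrophils, ran most opposite to it.

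**Figure D5:**
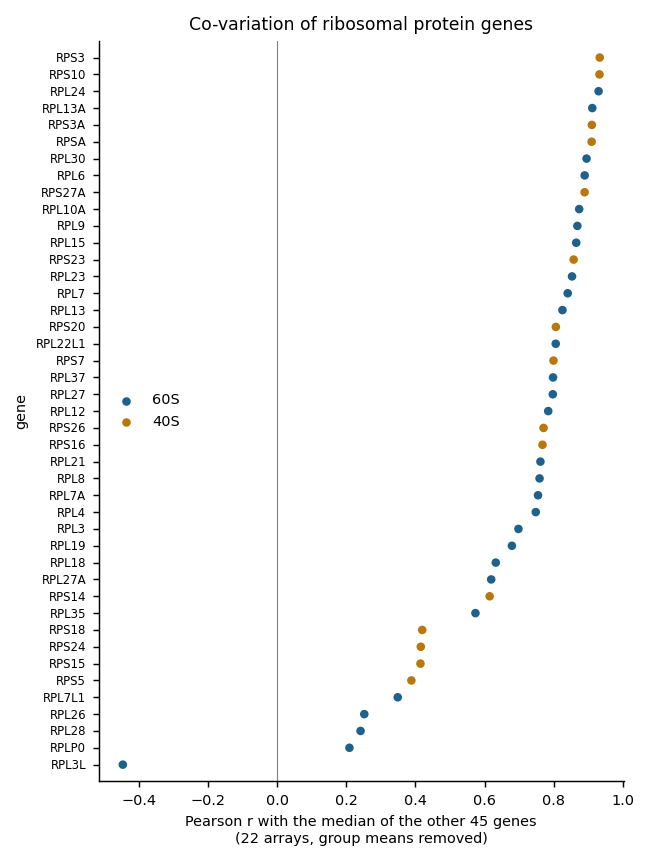
Correlation (x axis) of 43 of the 46 ribosomal protein genes (rows) with the median of the other members over 22 arrays, group means removed, with 60S genes in blue and 40S genes in orange. RPS3 was highest at 0.933 and RPL3L lowest at -0.447, and the median over all 46 genes was 0.783.

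Other genes of protein synthesis were taken as lists. Of 18 measured genes of translation elongation and of other TOP transcripts (24 listed), 0 were called in any comparison (against at most 0.00633% of all genes), 14 (77.8%) were above 0 in 0 vs. ctrl (against 52.6%), and the medians were 0.12, -0.05 and 0.16 in 0 vs. ctrl, 6 months vs. ctrl and 0 vs. 6 months. EEF2, the translocation factor, differed by 0.41 and TPT1 by 0.38 in 0 vs. ctrl, against -0.19 for GNB2L1, the scaffold protein of the small subunit, and -0.07 for EIF4B. Of 29 measured genes of ribosome biogenesis (40 listed), 0 were called and the medians were 0.06, -0.14 and 0.10. Of 58 measured mitochondrial ribosomal protein genes (62 listed), 0 were called, 3 were higher and 2 lower at an unadjusted p under 0.05 in 0 vs. ctrl (against 3.25% and 6.06% of all genes, near which these counts lie), and the medians were 0.06, -0.09 and 0.13. MRPL1 was highest among them in 0 vs. ctrl at 0.79 (adjusted p = 0.26) and MRPS11 lowest at -0.33. Of 13 measured mTOR and TOP regulators (16 listed), 0 were called and the medians were -0.06, -0.12 and 0.00. LARP4, which binds poly(A) tails, was lowest at -0.38 (adjusted p = 0.277).

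Markers of the blood cells also differed between the arrays, and 0 of these were called in any comparison (against at most 0.00633% of all genes). Of 12 measured T cell markers (17 listed), the medians per array ran from -0.49 to 0.31 in healthy dogs, -0.75 to 0.64 before ASIT and -0.61 to -0.10 after ASIT, and the median differences were 0.06 and -0.26 from healthy dogs before and after ASIT and 0.28 between the times. Of 6 measured B cell markers (12 listed), 5 (83.3%) were above 0 in 0 vs. 6 months, against 49.8% of all genes, and the median differences were 0.04, -0.23 and 0.27 in the same order. Erythroid markers (13 of 17 measured) ran from -0.90 to 1.48, -1.17 to 1.44 and -0.69 to 1.49, with a median difference of 0.50 in 0 vs. ctrl, 0.72 after ASIT and -0.17 in 0 vs. 6 months. In 0 vs. 6 months 3 of 13 (23.1%) were above 0, against 49.8% of all genes. From healthy dogs 12 of 13 (92.3%) were above 0 both before and after ASIT, against 52.6% and 45.5% of all genes. Platelet markers (9 of 12 measured) ran from -0.71 to 0.82, -1.04 to 0.30 and -0.79 to 0.61, with a median difference of -0.40 in 0 vs. ctrl, -0.12 after ASIT and -0.32 in 0 vs. 6 months. The median differences of 12 neutrophil markers (16 listed) were 0.01, 0.11 and -0.12 in this order, and those of 12 monocyte markers -0.11, -0.01 and -0.11. Over the 22 arrays, with group means removed, the median correlation of the list's genes with the member median was 0.414 for B cell, 0.36 for T cell, -0.112 for erythroid, -0.187 for monocyte, -0.25 for platelet and -0.341 for neutrophil markers. The part of the cell make-up in the differences of the ribosomal protein genes was not tested.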

How the data were processed

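The authors labelled dog RNA with Cy5 and the common reference with Cy3, hybridised Agilent canine 4 x 44K arrays and extracted them with Agilent Feature Extraction (version 10.7.3.1 per the methods, 10.10.1.1 per the file headers). The deposited intensity values of both channels are background-subtracted and Lowess dye-normalized, and the deposited log10 ratio is Cy5 over Cy3. The deposited flags for outliers and background removed 208 spots and set the filter on dim probes. Here log10 ratios were turned into log2, spots of a probe and measured probes of a gene averaged, and 15802 gene means tested with limma 3.58.1 (R 4.3.3; lmFit and eBayes, 3 groups in 1 fit) with Benjamini-Hochberg adjustment at 0.05. Differences of single genes were also tested by two-sided exact permutation (6435 arrangements for 8 against 7 dogs; 128 sign flips within dogs). The number of arrays limits the precision.

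Members and gene lists were chosen with earlier results of these data known. Genes were named by rule: stalk, RPSA and paralog genes, the 3 highest and 3 lowest members of each comparison, the 3 steadiest and 3 most variable in healthy dogs, the 3 with the most unlike probes, and the 2 highest and 2 lowest of each list; other members were named after their values were seen. Before and after arrays are of the same dogs per the labels, and the residuals of each dog's pair correlated from -0.234 (dog 6) to 0.658 over all genes, above 0.1 in 6 of 7 dogs, against a median of -0.0862 for pairs of different dogs; 3 of the 7 arrays before ASIT correlated best with the array of their own dog. The fit was tested on simulated data: of 200 genes changed by 2 log2 units, 196 were recovered in 0 vs. ctrl with 9 false calls and 194 in 0 vs. 6 months with 8; changes as small as those of the members were not simulated. Alternatives changed the background correction, the channel, the source of values, centring, filters, probe choice, blocks, the test and the arrays used. The deposited series matrix equals the scanner ratios for the cAD arrays only. Some items are not reported here by name.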

Additional observations from a re-analysis of the deposited data

Results flagged for a closer look

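Of 60 groups of arrays examined over the genes named by rule and the probe described as ribosomal protein S19, 2 held an array far from the others, and chance alone gives about 1 in 20. Both were RPS24 in dog 2: -1.85 before ASIT, where the gap to the next dog was 0.622 of the range of the group, and -1.45 after ASIT, where it was 0.634. The cause was not tested.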

How the results depend on the processing

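No member was called in any comparison under any alternative, except RPL26 in 0 vs. ctrl with the Cy5 channel alone: 1 member was then called, lower in cAD patients, at -0.48 (adjusted p = 0.0423). That is 2.17% of members, against 4.54% of all genes called under this setting. That setting also turned the direction of RPL7A (0.0010), RPL7L1 (0.26), RPL3L (-0.26) and RPSA (-0.17) in 0 vs. ctrl and of RPS24 (0.29) and RPLP0 (0.0082) in 0 vs. 6 months. The cause was not tested. With normexp and loess, RPL7L1 was at 0.039 and RPL22L1 at 0.051 in 0 vs. ctrl, and RPS24 at 0.061 and RPLP0 at 0.14 in 0 vs. 6 months. The brightest probe of each gene gave -0.055 for RPSA and 0.092 for RPL7A in 0 vs. ctrl. In 0 vs. 6 months, dogs 1 to 3 gave -0.049 for RPL7 and 0.032 for RPL3L, dogs 4 to 7 gave 0.10 for RPS24, and probes above background on at least 7 arrays gave 0.14 for RPL3L. Leaving out single arrays or dogs moved 0 vs. ctrl from -0.046 to 0.15 for RPSA, -0.079 to 0.067 for RPL22L1, -0.18 to 0.036 for RPL7L1 and -0.13 to 0.073 for RPL7A, and 0 vs. 6 months from -0.21 to 0.0040 for RPLP0 and -0.17 to 0.20 for RPS24.

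Without single arrays or dogs, the member medians ran from 0.16 to 0.27 in 0 vs. ctrl, -0.04 to 0.07 in 6 months vs. ctrl and 0.14 to 0.26 in 0 vs. 6 months. Counts at an unadjusted p under 0.05 moved more. In 0 vs. ctrl 13 became 7 with the scan as a random block (15.2%, against 1.15% of all genes), 5 with the methods' one-way test (10.9%, against 1.34%) and 8 to 19 without single arrays, and of 88 probes fitted singly 27 were higher and 1 lower (30.7% and 1.14%, against 3.21% and 5.69% of all probes). In 6 months vs. ctrl, where normexp gave a median of -0.06 and the Cy5 channel alone -0.13, the 1 higher member gave way to 4 and 5 lower ones (8.7% and 10.9%, against 2.84% and 11.4% of all genes), and without the array of dog 4 after ASIT 4 were higher (8.7%, against 13.3%). In 0 vs. 6 months 1 became 21 and 17 under the same settings (45.7% and 37%, against 1.49% and 5.52% of all genes), 11 with the dog as a replicate block (23.9%, against 4.13%), 13, 9 and 6 without the array of dog 2, 3 or 1 before ASIT (28.3%, 19.6% and 13%, against 5.27%, 2.27% and 2.17%), 4 without control 5 (8.7%, against 1.71%), and 0 without both arrays of dog 6 (against 0.715%). The replicate block changed no call. Of 31 results on single genes, 21 kept their direction under every alternative. The number of arrays and the slides shared by no healthy dog and patient limit all comparisons.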
